A study of Mus musculus and Homo sapiens with 33 samples.

Results

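Epithelial cells are joined by adherens junctions, tight junctions and desmosomes, and carry simple keratins as their intermediate filaments. In the epithelial to mesenchymal transition (EMT), transcription factors of the ZEB, SNAIL and TWIST families repress genes of this kind, while Grhl2 and the splicing factors Esrp1 and Esrp2 are known for sustaining the epithelial state. Lung adenocarcinoma cells often sit between these states and can express markers of both. The genes described here are 36 genes of these groups, taken by their symbol from the 38924 gene IDs of the count matrix. They comprise 5 genes of the adherens junction and cell adhesion, 6 of the desmosome and 11 of the tight junction, 4 simple keratins, Cdh2 and Vim, 5 EMT transcription factors, and 3 epithelial splicing or transcription factors.

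Polyadenylated RNA was sequenced from KPL cells, which derive from murine lung adenocarcinoma. There were 3 libraries of cells given 4-hydroxytamoxifen (4-OHT) for 72 hours at a dose that the labels write as 10 nm, and 3 of control cells, named EtOH in the sample descriptions. Per the labels, Lin9 is deleted by 4-OHT. LIN9 belongs to the core of MuvB, a complex that regulates cell cycle genes. The labels used here give neither the alleles of the line nor the recombinase that 4-OHT acts on, and no library is labelled as cells with intact Lin9 given 4-OHT. Effects of the compound and of Lin9 loss therefore cannot be told apart. The 4-OHT libraries held 5894309 to 5913942 counted reads and the control libraries 5859826 to 5876193. The labels do not say that the libraries came from separate cultures, so the p-values speak only of the spread among the 6 libraries, and this spread may be technical. In bulk RNA, fewer cells of a type and less RNA per cell cannot be told apart.

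Lin9 had 18.3, 18.1 and 17.1 CPM in the 4-OHT libraries, against 26.7, 21.3 and 27.3 CPM in the control libraries (CPM, counts scaled to a common library size). All 4-OHT values lay below all control values, and Lin9 fell by 28.9% (log2 fold change -0.49, SE 0.11, edgeR quasi-likelihood adjusted p = 0.0011). Exons outside a deleted part can also contribute to this whole-gene count, and how far Lin9 was deleted in these cells was not tested. The labelled epithelial origin was checked against Epcam, Cdh1, Krt7, Krt8, Krt18 and Krt19, which were read in every library at the levels given below. Of the alveolar markers, Sftpc, Sftpa1 and Napsa had 0 reads in all 6 libraries, which allows up to 0.507 to 0.512 CPM per library (3 reads, counting error only). Nkx2-1, the lineage factor of lung epithelium, had 25 to 31 reads in the 4-OHT and 31 to 46 in the control libraries. Abca3, a lipid transporter of alveolar type 2 cells, had the highest level of the alveolar markers, with 338 to 365 reads in the 4-OHT and 336 to 367 in the control libraries. The summed level of the 8 alveolar markers was 70.3 to 76.9 CPM in the 4-OHT and 73.5 to 78.4 CPM in the control libraries.

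Markers of other cell types had few reads in both groups. The 9 fibroblast and pericyte markers summed to 9.45 to 10.5 CPM in the 4-OHT and 9.94 to 12.5 CPM in the control libraries, with Lum at 0 reads throughout and Col1a1 the highest. The 8 leukocyte markers summed to 7.59 to 9.16 CPM in the 4-OHT and 7.03 to 12.2 CPM in the control libraries, with Cd3e and Ms4a1 at 0 and Emr1 the highest. For 6 endothelial markers the sums were 9.62 to 9.84 CPM with 4-OHT and 8.04 to 10.6 CPM in control, with Cldn5 at 0 and Tek the highest. For 6 airway markers they were 3.05 to 6.75 CPM with 4-OHT and 5.14 to 7.90 CPM in control, with Krt5 and Scgb3a2 at 0 and Muc5b the highest. None of the 12 tested genes of these 5 marker lists passed in edgeR, DESeq2 or limma-voom, where edgeR called 9.79% of all genes tested. DESeq2 gave no adjusted p for 2 fibroblast and pericyte, 1 leukocyte and 1 airway gene among them. Nkx2-1 alone had an unadjusted edgeR p under 0.05, as did 21.2% of all genes tested. The part of other cell types in the results was not tested.

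After 4-OHT, several genes of the epithelial state were lower and several linked to the mesenchymal state were higher, by 8.5% to 27.5%. Epcam, Cdh1, Krt7, Cldn3, Cldn7, Tjp1, Esrp1 and Grhl2 fell. Of these, Cldn3 kept its call in 5 and Tjp1 in 11 of 14 alternative settings, and both lost it in DESeq2. Vim, Cdh2 and Zeb1 rose, but Cdh2 kept its call in 8 and Zeb1 in 10 of 14 alternative settings, and both lost it in DESeq2. The catenin genes Ctnnb1 and Ctnna1 rose as well, although they are adherens junction genes, so the division was not uniform. Of the 34 members with enough reads to be tested, 8 passed as lower and 5 as higher, while 21 missed the threshold (quasi-likelihood F test of edgeR, adjusted p under 0.05 by Benjamini-Hochberg over 13355 genes). The 13 called members are 38.2% of those tested, where 9.79% of all genes tested were called, 5.17% lower and 4.61% higher. The difference between these shares was not tested. The members were chosen with earlier results of these data known, and genes with many reads can pass at smaller changes. The 3 values of each group did not overlap for 10 members that were lower and 8 that were higher, beside 12.2% lower and 12.1% higher among all genes tested, 24.3% in all.

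The changes were small. Called members had a median absolute log2 fold change of 0.21, and all called genes one of 0.30. None of the 13 reached a 1.5-fold change, which 225 of the 1307 called genes did. The median log2 fold change over the 34 members was 0.0016, beside 0.0005 over all genes tested, with falls and rises on either side. Replicates were close, with a median coefficient of variation over these members of 3.34% in the 4-OHT and 3.86% in the control libraries.

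**Figure D1:**
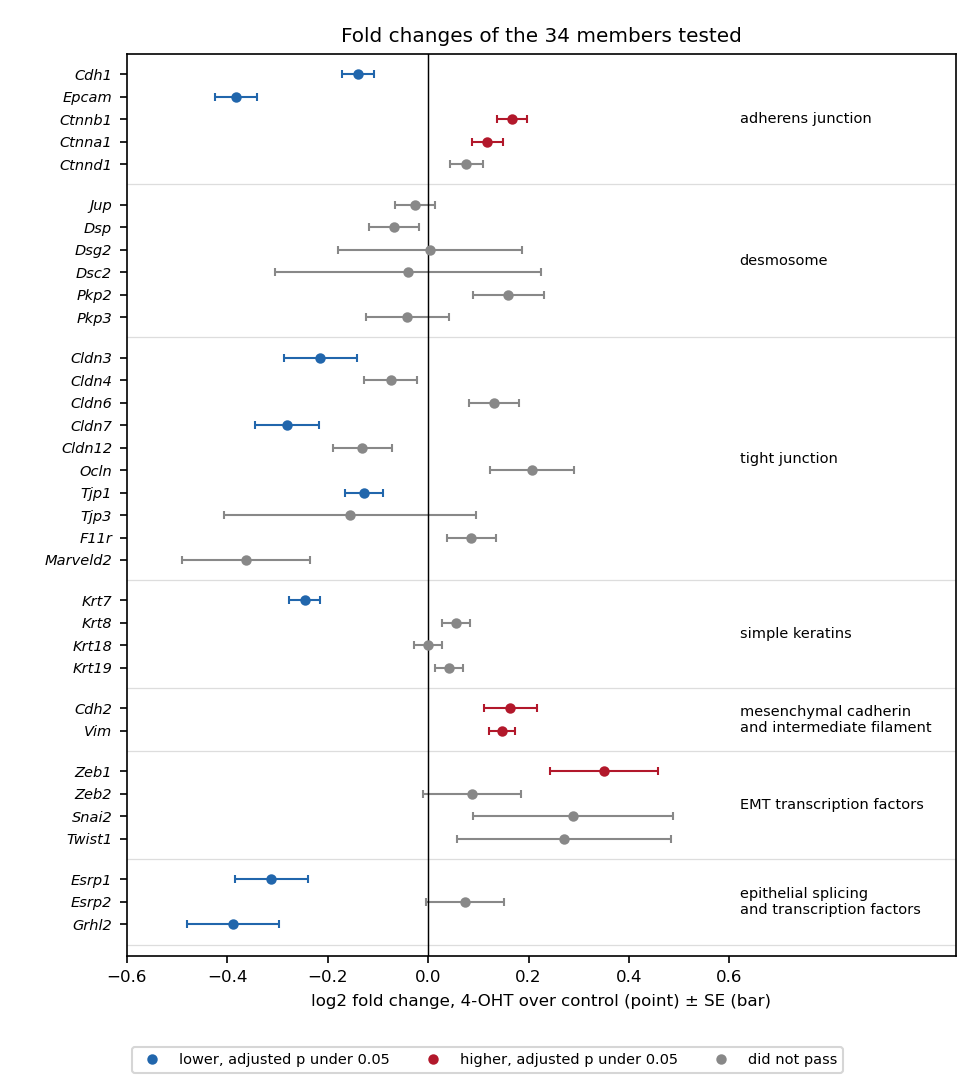
Log2 fold changes of 4-OHT over control (horizontal axis) for the 34 members tested, grouped by role, with bars of 1 SE; blue and red points passed the edgeR test at an adjusted p under 0.05. The 8 blue points lie in the adherens, tight junction, keratin and epithelial factor groups, and the 5 red points are Ctnnb1, Ctnna1, Cdh2, Vim and Zeb1.

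**Figure D2:**
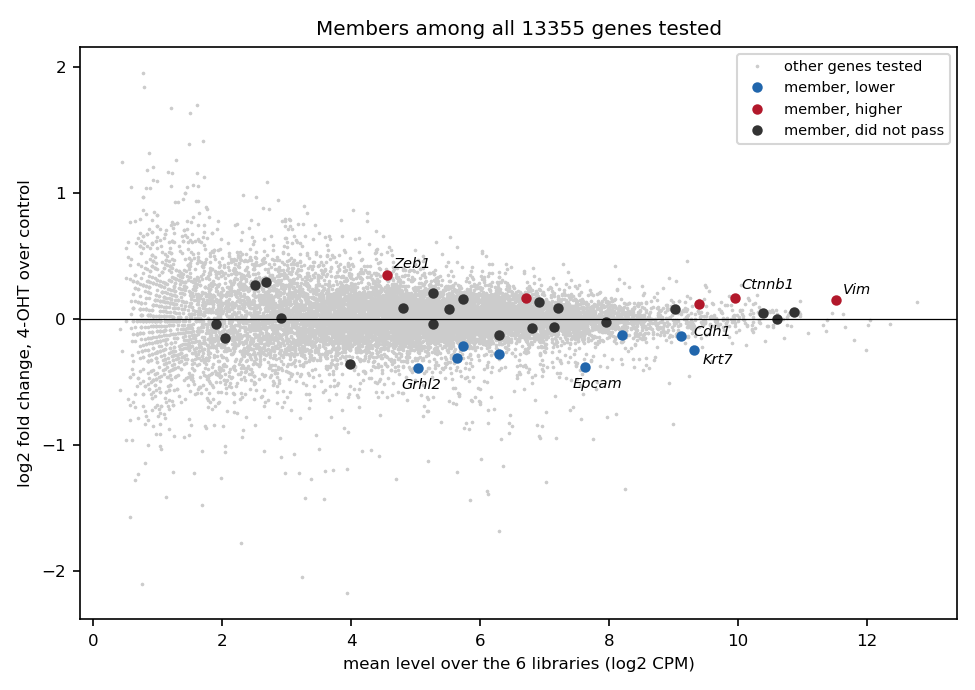
Log2 fold change of 4-OHT over control (vertical axis) against the mean level over the 6 libraries (log2 CPM, horizontal axis) for all 13355 genes tested in grey, with the 34 members coloured by their call. The called members lie between -0.39 and 0.35, well inside the range of -2.18 to 1.95 of all genes.

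Promoter windows of some called members are shown because members of the ZEB and SNAIL families are known to bind the E-box in such promoters. Whether they bind here was not tested. RefSeq windows of 250 bases before to 50 after a gene start (GRCm38.p6) were in the table for 23 of the 36 members. Among the called members they were present for Epcam, Krt7, Cldn3, Cldn7, Tjp1, Vim and Ctnnb1. Of the genes that were lower, only windows with an E-box are shown, so the sequences do not reflect how often it occurs. The windows of Tjp1, Ctnnb1 and the upstream Cldn7 start are left out. Shown are the 250 bases before the start for Epcam (chr17:87635729-87635978), Krt7 (chr15:101412153-101412402), Vim (chr2:13574061-13574310) and the downstream of the 2 Cldn7 starts (chr11:69965171-69965420), and 30 bases around the E-box that follows the Cldn3 start (chr5:134986233-134986262). All are on the plus strand, in lower case, with the E-box letters CAGGTG or CACCTG (the same motif on the other strand) and the letters TTTGAA or TTCAAA of the CHR element in capitals. The CHR element is bound by MuvB complexes in cell cycle promoters.
Epcam: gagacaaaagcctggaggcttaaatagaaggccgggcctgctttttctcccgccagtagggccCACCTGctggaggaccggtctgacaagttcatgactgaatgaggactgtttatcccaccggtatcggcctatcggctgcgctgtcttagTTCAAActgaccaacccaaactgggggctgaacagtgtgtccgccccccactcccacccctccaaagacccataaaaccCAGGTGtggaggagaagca
Krt7: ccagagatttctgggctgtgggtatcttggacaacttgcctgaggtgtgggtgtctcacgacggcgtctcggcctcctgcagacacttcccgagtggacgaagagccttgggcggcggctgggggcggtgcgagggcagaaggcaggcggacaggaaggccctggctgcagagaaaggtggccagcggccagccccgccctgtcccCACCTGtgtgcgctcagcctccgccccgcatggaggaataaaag
Cldn7: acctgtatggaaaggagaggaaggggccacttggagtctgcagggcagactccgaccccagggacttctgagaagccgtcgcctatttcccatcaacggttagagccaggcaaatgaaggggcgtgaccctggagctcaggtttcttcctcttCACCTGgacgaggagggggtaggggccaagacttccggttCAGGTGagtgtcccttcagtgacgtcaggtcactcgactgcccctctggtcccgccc
Cldn3: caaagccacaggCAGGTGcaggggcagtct
Vim: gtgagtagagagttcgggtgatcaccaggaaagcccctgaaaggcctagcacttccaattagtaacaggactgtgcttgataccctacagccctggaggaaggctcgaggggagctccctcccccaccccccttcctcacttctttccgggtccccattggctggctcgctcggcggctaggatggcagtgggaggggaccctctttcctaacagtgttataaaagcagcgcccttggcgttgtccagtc

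Counted from the start that each window belongs to, the first base of the E-box stood at -187 and -19 in Epcam, at -44 in Krt7, at -97 and -57 in Cldn7 and at 32 in Cldn3. The Cldn7 positions refer to its downstream start, and that stretch lies inside the gene as annotated (69964779 to 69967886). Epcam also held CHR letters at -98. Neither motif was in the windows of Vim, Tjp1 and Ctnnb1, nor in the other Cldn7 window. On both strands, the E-box was in a window of 4 of the 5 genes that were lower, of 0 of the 2 that were higher, of 9 of the 14 that were not called, and of 1 of the 2 that were not tested. It was in 14 of all 23 members with a window (60.9%), beside 22.6% of all 27025 genes in the table. The CHR letters were in 4 of the 23 members (17.4%), beside 20.2% of all genes. A gene may have several windows, which raises its share, and these matches describe letters, not binding.

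Among the adhesion genes, Epcam and Cdh1 fell while the catenin genes Ctnnb1 and Ctnna1 rose. Epcam (ENSMUSG00000045394, chromosome 17, 87635979 to 87651127), a homophilic adhesion molecule of epithelial cells, had 166, 169 and 179 CPM in the 4-OHT libraries, against 221, 222 and 226 CPM in the control libraries. The groups did not overlap, and Epcam fell by 23.3% (log2 fold change -0.38, SE 0.04, edgeR adjusted p = 4.4e-12). Cdh1 (ENSMUSG00000000303, chromosome 8, 106603350 to 106670247), which encodes E-cadherin, had 529, 525 and 528 CPM in the 4-OHT libraries, against 591, 591 and 559.6 CPM in the control libraries. Control replicate 3 was the lowest of its group and still above all 4-OHT values. Cdh1 fell by 9.20% (log2 fold change -0.14, SE 0.03, edgeR adjusted p = 0.0010).

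Ctnnb1 (ENSMUSG00000006932, chromosome 9, 120933400 to 120960507) encodes beta-catenin, which links cadherins to alpha-catenin and also acts in Wnt signalling. It had 1047, 1044 and 1051 CPM in the 4-OHT libraries, against 973, 926 and 897 CPM in the control libraries. The groups did not overlap. It rose by 12.3% (log2 fold change 0.17, SE 0.03, edgeR adjusted p = 1.1e-05). Ctnna1 (ENSMUSG00000037815, chromosome 18, 35118902 to 35254776), the alpha-catenin gene that couples the complex to actin, had 700.2, 699 and 709 CPM with 4-OHT, against 637, 644 and 662 CPM in control. It rose by 8.52% (log2 fold change 0.12, SE 0.03, edgeR adjusted p = 0.0046). Leaving out control replicate 1 ended the Ctnna1 call (adjusted p = 0.071). Lrrtm2 and Gm46617 overlap Ctnna1 in the annotation. Lrrtm2 had 0 reads in each library, and the reads of Gm46617 were not examined. Ctnnd1, which encodes p120-catenin, averaged 534 ± 11.8 CPM with 4-OHT and 507 ± 21.4 CPM in control (SD, n = 3 each) and did not pass (log2 fold change 0.08, SE 0.03, edgeR adjusted p = 0.151).

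**Figure D3:**
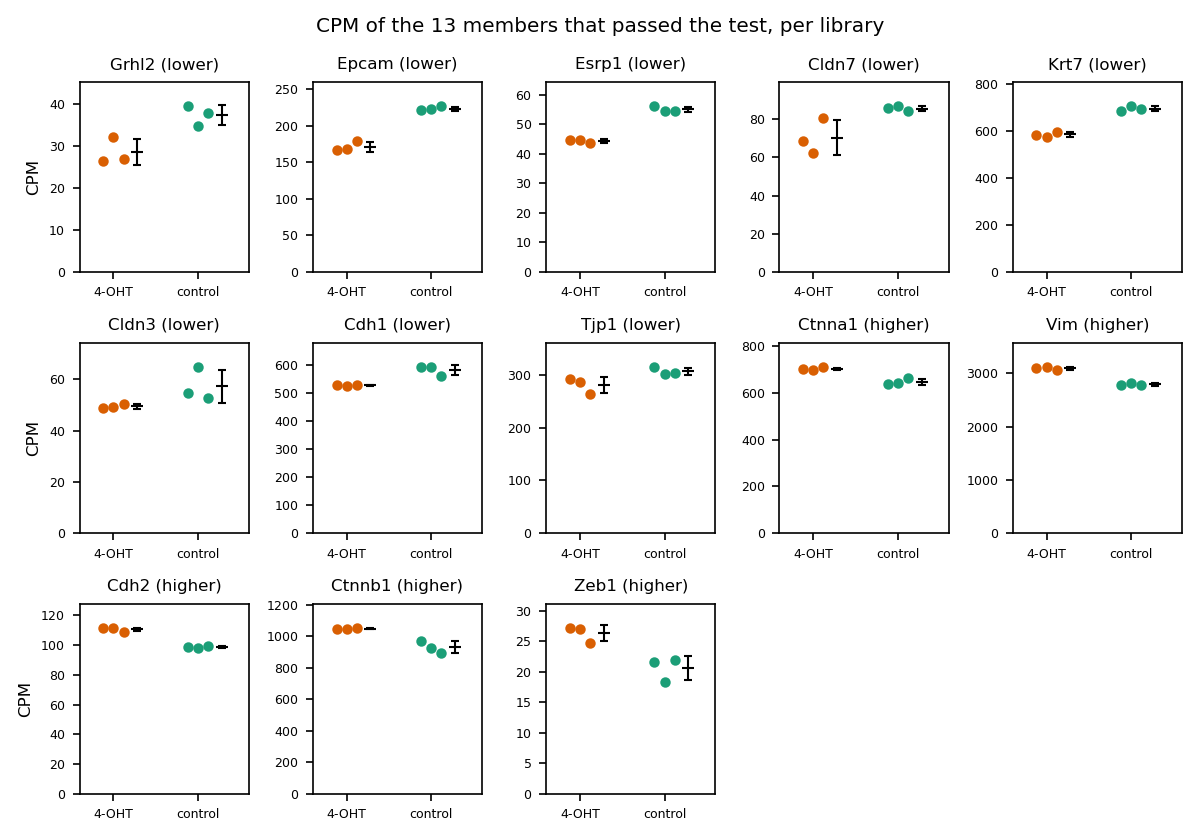
CPM per library (points) in the 3 4-OHT and 3 control libraries for the 13 members that passed the test, with mean and SD as a black bar; each vertical axis starts at 0. In all 13 panels the 3 points of 4-OHT and of control do not overlap, and the distances are small relative to the level, as in Cdh1 with 525 to 529 against 559.6 to 591 CPM.

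Among the 10 tight junction genes tested, 3 fell, none passed as higher, and the other 7 missed the threshold. Of all genes tested, 5.17% passed as lower and 4.61% as higher, so 0 of 10 higher says little about tight junctions. Cldn7 (ENSMUSG00000018569, chromosome 11, 69964779 to 69967886), a claudin of the basolateral membrane as well as of tight junctions, had 68.3, 62.4 and 80.4 CPM in the 4-OHT libraries, against 85.8, 86.7 and 84.2 CPM in the control libraries. 4-OHT replicate 3 lay close to the control range. Cldn7 fell by 17.7% (log2 fold change -0.28, SE 0.06, edgeR adjusted p = 0.00093). Leaving out 4-OHT replicate 2 ended this call (adjusted p = 0.066).

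Cldn3 (ENSMUSG00000070473, chromosome 5, 134986214 to 134987476), a barrier-forming claudin, had 48.7, 49.3 and 50.4 CPM with 4-OHT, against 54.6, 64.7 and 52.8 CPM in control. Control replicate 2 stood above the other control libraries. Cldn3 fell by 13.8% (log2 fold change -0.21, SE 0.07, edgeR adjusted p = 0.044). This call lay at the threshold. It was lost without control replicate 2, which also brought the log2 fold change to -0.12 (adjusted p = 0.461), without control replicate 1 (0.053) or any of 4-OHT replicates 1, 2 and 3 (0.119, 0.128 and 0.051), and with 4 other settings (adjusted p 0.051 to 0.322). The overlapping Wbscr25, a noncoding gene, had at most 6 reads per library.

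Tjp1 (ENSMUSG00000030516, chromosome 7, 65296165 to 65527850) encodes ZO-1, the scaffold that ties claudins and occludin to actin. It had 293, 287 and 263 CPM with 4-OHT, against 315, 303 and 305 CPM in control. It fell by 8.5% (log2 fold change -0.13, SE 0.04, edgeR adjusted p = 0.016). Leaving out 4-OHT replicate 3, which had the lowest level, ended this call and brought the log2 fold change to -0.09 (adjusted p = 0.190), as did leaving out control replicate 1 (0.146), and the use of DESeq2 (0.147).

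The tight junction genes that did not pass pointed in either direction. Marveld2, the tricellulin gene of tricellular contacts, averaged 13.8 ± 1.36 CPM with 4-OHT and 17.7 ± 0.95 CPM in control without overlap (SD, n = 3 each). Its log2 fold change of -0.36 (SE 0.13) missed the threshold (edgeR adjusted p = 0.057), and it passed without 4-OHT replicate 3 (0.041). Ocln, which encodes occludin, averaged 41.5 ± 3.83 CPM with 4-OHT and 35.9 ± 1.42 CPM in control. Its log2 fold change was 0.21 (SE 0.08, edgeR adjusted p = 0.111), and it passed as higher without 4-OHT replicate 2 (0.045). Cldn6, a claudin best known from embryonic epithelia, had a log2 fold change of 0.13 (SE 0.05) without overlap of the groups, and the widely expressed Cldn12 had one of -0.13 (SE 0.06), also without overlap. The log2 fold change was -0.07 (SE 0.05) for Cldn4, 0.09 (SE 0.05) for F11r, which encodes the adhesion molecule JAM-A, and -0.16 (SE 0.25) for the scaffold gene Tjp3. Cldn1 had 3 to 8 reads with 4-OHT and 4 to 5 in control, too few to be tested.

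None of the 6 desmosome genes passed the test (edgeR, 0 of 6 called). With 9.79% of all genes tested called, 0 of 6 genes says little about desmosomes as a group. By unadjusted edgeR p under 0.05 only Pkp2 passed, where 21.2% of all genes tested did. By DESeq2 and limma-voom none of the 6 passed. Jup, which encodes plakoglobin, averaged 245 ± 2.02 CPM with 4-OHT and 249.8 ± 15.2 CPM in control (SD, n = 3 each; log2 fold change -0.03, SE 0.04). Dsp, the desmoplakin gene that anchors keratin filaments, averaged 138 ± 13 CPM with 4-OHT and 145 ± 1.32 CPM in control (log2 fold change -0.07, SE 0.05). The plakophilin genes Pkp2 and Pkp3 had log2 fold changes of 0.16 (SE 0.07) and -0.04 (SE 0.08). For the desmosomal cadherins Dsg2 and Dsc2, with 7.51 ± 0.334 and 3.67 ± 0.648 CPM in the 4-OHT libraries, the SE of 0.18 and 0.27 limits what could be seen.

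Of the 4 simple keratins, Krt7 fell and the others did not pass. Krt7 (ENSMUSG00000023039, chromosome 15, 101412403 to 101427806), a type II keratin of simple and ductal epithelia, had 583, 578 and 599 CPM in the 4-OHT libraries, against 686, 707 and 695 CPM in the control libraries. It fell by 15.7% without overlap (log2 fold change -0.25, SE 0.03, edgeR adjusted p = 9.4e-10). Krt8 and Krt18 are the partner keratins of simple epithelia.

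Krt8 had 1874, 1931 and 1933 CPM with 4-OHT, against 1845, 1826 and 1850.0 CPM in control (log2 fold change 0.06, SE 0.03, edgeR adjusted p = 0.219). Krt18 had 1536, 1561 and 1571 CPM with 4-OHT, against 1552, 1579.9 and 1538 CPM in control, and its fitted log2 fold change was -0.0007 (SE 0.03). The Krt18 groups overlapped, whereas the Krt8 groups did not overlap but lay close. Krt19, the acidic keratin often paired with Krt7 or Krt8, averaged 1364 ± 34.7 CPM with 4-OHT and 1324 ± 16.4 CPM in control (SD, n = 3 each; log2 fold change 0.04, SE 0.03). There were 0.311, 0.299 and 0.310 reads of Krt7 per read of Krt8 in the 4-OHT libraries, against 0.372, 0.387 and 0.375 in the control libraries.

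Both mesenchymal structural genes rose. Vim (ENSMUSG00000026728, chromosome 2, 13574311 to 13582826), the intermediate filament gene of mesenchymal cells, had 3099, 3113 and 3063 CPM in the 4-OHT libraries, against 2783, 2819 and 2775 CPM in the control libraries. The groups lay well apart, and Vim rose by 10.7% (log2 fold change 0.15, SE 0.03, edgeR adjusted p = 1.2e-05). Cdh2 (ENSMUSG00000024304, chromosome 18, 16588877 to 16809246), which encodes N-cadherin, had 111, 111 and 109 CPM with 4-OHT, against 98.8, 98.1 and 99.2 CPM in control. It rose by 12.0% (log2 fold change 0.16, SE 0.05, edgeR adjusted p = 0.028).

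Although the Cdh2 groups did not overlap and its log2 fold change kept between 0.16 and 0.17 under all settings, its call changed with the libraries used. It was lost without 4-OHT replicate 1 (adjusted p = 0.074) or 2 (0.088), without control replicate 1 (0.087), 2 (0.083) or 3 (0.068), and in DESeq2 (0.248). Cdh1 reads per Cdh2 read were 4.75, 4.72 and 4.84 in the 4-OHT libraries, against 5.98, 6.03 and 5.64 in the control libraries. Epcam reads per Vim read were 0.0536, 0.0541 and 0.0584 with 4-OHT, against 0.0795, 0.0788 and 0.0815 in control. Neither ratio overlapped between the groups, which follows from the single genes, whose groups did not overlap and moved in opposite directions. Both ratios are given as descriptions without a test.

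Among the EMT transcription factors, Zeb1 rose, 3 others did not pass and Snai1 could not be tested. Zeb1 (ENSMUSG00000024238, chromosome 18, 5591327 to 5775468), a zinc finger repressor known for silencing Cdh1 and Esrp1, had 27.1, 27 and 24.8 CPM in the 4-OHT libraries, against 21.6, 18.4 and 21.9 CPM in the control libraries. The lowest 4-OHT value stood above the highest control value. Zeb1 rose by 27.5% (log2 fold change 0.35, SE 0.11, edgeR adjusted p = 0.021). Leaving out 4-OHT replicate 1 (adjusted p = 0.078), 4-OHT replicate 2 (0.086) or control replicate 2 (0.170) ended this call, as did the use of DESeq2 (0.209). Gm10125, a noncoding gene that overlaps Zeb1 in the annotation, had 19 to 33 reads with 4-OHT and 21 to 28 in control, and without stated strand use its reads cannot be told apart from those of Zeb1 with certainty.

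Zeb2, the paralog of Zeb1, had 28.3, 29.4 and 28.9 CPM with 4-OHT, against 28.9, 25.8 and 26.7 CPM in control (log2 fold change 0.09, SE 0.10, edgeR adjusted p = 0.689). Snai2, which encodes Slug, had 7.29, 7.09 and 6.79 CPM with 4-OHT, against 6.85, 5.32 and 5.14 CPM in control. Twist1, a basic helix-loop-helix factor, had 7.63, 5.4 and 5.6 CPM with 4-OHT, against 5.48, 4.46 and 5.48 CPM in control. The groups of these 3 genes overlapped. Log2 fold changes were 0.29 (SE 0.20) for Snai2 and 0.27 (SE 0.21) for Twist1, which came to 0.10 without 4-OHT replicate 1, so that a change of the size seen for Zeb1 was not detectable at this depth. Snai1, which encodes Snail, had 6, 11 and 9 reads with 4-OHT, against 7, 14 and 5 in control.

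Of the epithelial factors, Esrp1 and Grhl2 fell and Esrp2 did not pass. Esrp1 (ENSMUSG00000040728, chromosome 4, 11331933 to 11386783), a splicing regulator of epithelial isoforms, had 44.6, 44.9 and 43.6 CPM in the 4-OHT libraries, against 56.1, 54.6 and 54.5 CPM in the control libraries. Values within each group were close, and Esrp1 fell by 19.5% (log2 fold change -0.31, SE 0.07, edgeR adjusted p = 0.0012). Grhl2 (ENSMUSG00000022286, chromosome 15, 37232821 to 37363569), a transcription factor that activates junction genes such as Cdh1 and Cldn4, had 26.5, 32.1 and 26.8 CPM with 4-OHT, against 39.4, 34.7 and 37.7 CPM in control. The replicate 2 libraries lay nearest each other. Grhl2 fell by 23.7% (log2 fold change -0.39, SE 0.09, edgeR adjusted p = 0.0014). The overlapping noncoding gene Gm16136 had at most 13 reads per library.

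Esrp2, the paralog of Esrp1, had 52.7, 43.7 and 45 CPM with 4-OHT, against 45.2, 43.1 and 46.1 CPM in control (log2 fold change 0.07, SE 0.08, edgeR adjusted p = 0.670). Its groups overlapped, and whether the paralogs differ in their response was not tested. Esrp1 reads per Zeb1 read were 1.64, 1.66 and 1.76 in the 4-OHT libraries, against 2.60, 2.97 and 2.48 in the control libraries. Grhl2 reads per Zeb1 read were 0.975, 1.19 and 1.08 with 4-OHT, against 1.83, 1.89 and 1.72 in control. Both ratios were lower in every 4-OHT library. This follows from the groups of Esrp1, Grhl2 and Zeb1, which did not overlap and moved in opposite directions, and is no separate result.

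Of the 13 called members, 7 passed under each of the 14 alternative settings, which were other scalings, filters and tests, a replicate block and leaving out each library. These were Epcam, Krt7, Cdh1, Esrp1 and Grhl2, which fell, and Ctnnb1 and Vim, which rose. Their largest adjusted p was 0.044, for Grhl2 in DESeq2. Ctnna1 and Cldn7 lost the call with 1 library each, and Tjp1, Zeb1, Cdh2 and Cldn3 lost it in several settings. DESeq2 called 9 of the members, all among the 13, where it called 4.53% of all genes it tested. Limma-voom called 12, also all among the 13, where it called 9.34% of all genes. In the authors' deposited table, FDR values were under 0.05 for 12 members, 8 lower and 4 higher, and for 7.14% of all genes. The member called here and not there was Cdh2, with a log2 fold change of 0.16 and an FDR of 0.061 in the authors' deposited table.

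**Figure D4:**
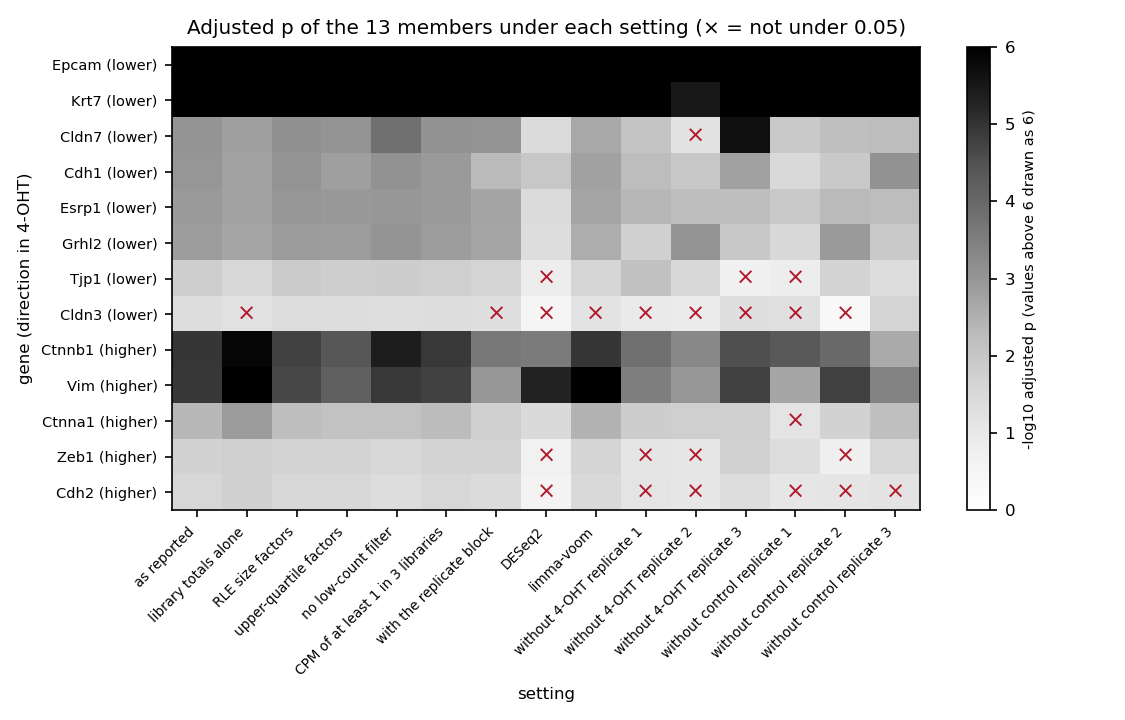
Adjusted p (shade, as -log10) of the 13 called members (vertical axis) as reported and under 14 alternative settings (horizontal axis), with a red cross where it was not under 0.05. Epcam, Krt7, Cdh1, Esrp1, Grhl2, Ctnnb1 and Vim carry no cross, and Cldn3 carries the most.

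Genes of the same structures outside the 36 were examined as lists, with 9.79% of all genes called as the background. Among 17 other adherens junction and polarity genes 1 was lower and 1 higher. Cdh3, which encodes P-cadherin, averaged 23.5 ± 1.27 CPM with 4-OHT and 29.4 ± 2.88 CPM in control (SD, n = 3 each; log2 fold change -0.32, SE 0.10, edgeR adjusted p = 0.026), a call lost without 4-OHT replicate 2 (0.102) or 3 (0.086) and without control replicate 1 (0.160) or 2 (0.127). Vcl, which encodes the actin linker vinculin, averaged 318 ± 10.2 CPM with 4-OHT and 293 ± 13.3 CPM in control (log2 fold change 0.12, SE 0.04, edgeR adjusted p = 0.025). Its groups overlapped, and its call was lost without 4-OHT replicate 1 (0.083) or 2 (0.162) and without control replicate 1 (0.158) or 2 (0.170).

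Of 19 other tight junction genes tested, 1 was lower and 3 were higher. Cgnl1, which encodes the junction protein paracingulin, averaged 303 ± 4.10 CPM with 4-OHT and 331 ± 5.95 CPM in control (log2 fold change -0.13, SE 0.04, edgeR adjusted p = 0.0091), a call lost without control replicate 2 (0.063). Tjap1, a tight junction-associated protein gene, averaged 84.7 ± 5.23 CPM with 4-OHT and 72.0 ± 1.94 CPM in control (log2 fold change 0.23, SE 0.06, edgeR adjusted p = 0.0039). The gene listed as Cldn25 in the files, which the gene name table calls Cldnd1, averaged 84.7 ± 1.85 CPM with 4-OHT and 71.0 ± 2.54 CPM in control (log2 fold change 0.26, SE 0.06, edgeR adjusted p = 0.0012). The remaining higher gene was Magi3, a scaffold gene, at 80.3 ± 2.49 CPM with 4-OHT and 70.9 ± 2.14 CPM in control (log2 fold change 0.18, SE 0.06, edgeR adjusted p = 0.042). Its call lay at the threshold and was lost without 4-OHT replicate 1 (0.133) or 2 (0.132), without control replicate 1 (0.140), 2 (0.143) or 3 (0.051), without the filter on low counts (0.062) and with the replicate block (0.054). Of 5 other desmosome genes, Pkp1 was lower, at 42.1 ± 4.53 CPM with 4-OHT and 51.9 ± 2.38 CPM in control (log2 fold change -0.30, SE 0.08, edgeR adjusted p = 0.0038). The Pkp1 call was lost without 4-OHT replicate 2 (0.051) or control replicate 1 (0.056).

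The gap junction gene Gja1 and the keratin genes Krt14 and Krt23, all outside the 36, had larger falls than any member. Gja1, which encodes connexin 43, had 63.2, 66.5 and 63.5 CPM in the 4-OHT libraries, against 115, 116 and 118 CPM in the control libraries. It fell by 44.6% (log2 fold change -0.85, SE 0.06, edgeR adjusted p = 7.0e-23). Among the 4 gap junction genes tested, 2 were lower and 0 higher.

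Of 7 other keratins tested, 2 were lower. Krt14, a keratin of basal cells, had 10.3, 10.8 and 11.2 CPM with 4-OHT, against 20.0, 21.1 and 19.2 CPM in control, and fell by 46.4% (log2 fold change -0.90, SE 0.13, edgeR adjusted p = 7.7e-08). Krt23 averaged 3.78 ± 0.584 CPM with 4-OHT and 6.51 ± 0.747 CPM in control (log2 fold change -0.78, SE 0.23, edgeR adjusted p = 0.013), a call lost without 4-OHT replicate 1 (0.085) or control replicate 3 (0.095). Keratins are a family of similar sequences, and how the counting treated reads shared between them is not stated.

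Of 8 other EMT transcription factors tested, 2 were higher and 0 lower, with a median log2 fold change of 0.15. The median was -0.145 for gap junction, -0.09 for other adherens and polarity and -0.08 for other desmosome genes. It was 0.03 each for other tight junction genes, other keratins and other epithelial factors, and 0.05 for mesenchymal effectors. Hmga2, a chromatin protein gene linked to EMT, averaged 709.6 ± 20.1 CPM with 4-OHT and 639 ± 11.1 CPM in control (log2 fold change 0.15, SE 0.03, edgeR adjusted p = 0.00019). Prrx1, a mesenchymal homeobox gene, averaged 10.8 ± 0.860 CPM with 4-OHT and 7.60 ± 0.652 CPM in control (log2 fold change 0.51, SE 0.17, edgeR adjusted p = 0.033). The Prrx1 call was lost without 4-OHT replicate 1 (0.12) or 2 (0.11) and without control replicate 1 (0.075), 2 (0.053) or 3 (0.152).

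Of 9 other epithelial transcription and splicing factors, 0 were called in edgeR, DESeq2 or limma-voom, and 0 had an unadjusted edgeR p under 0.05. Among all genes tested, 21.2% had such an unadjusted p. Klf4, the one with the highest CPM, averaged 175 ± 7.33 CPM with 4-OHT and 168 ± 13.3 CPM in control. Of 11 mesenchymal effector genes tested, 2 were higher, 1 was lower and 8 did not pass. Mmp14, a membrane-bound matrix protease gene, averaged 193 ± 9.12 CPM with 4-OHT and 161 ± 2.15 CPM in control (log2 fold change 0.26, SE 0.04, edgeR adjusted p = 3.6e-06). S100a4, a calcium-binding protein gene used as a mesenchymal marker, averaged 85.2 ± 2.17 CPM with 4-OHT and 70.3 ± 4.76 CPM in control (log2 fold change 0.28, SE 0.06, edgeR adjusted p = 0.00050). Nt5e, which encodes the ectonucleotidase CD73, averaged 31.9 ± 0.459 CPM with 4-OHT and 41.9 ± 5.76 CPM in control (log2 fold change -0.39, SE 0.09, edgeR adjusted p = 0.00071), a call lost without control replicate 1 (0.073). In DESeq2 the calls of Cdh3 (0.224), Vcl (0.219), Cgnl1 (0.075), Tjap1 (0.092), Magi3 (0.320), Pkp1 (0.084), Krt23 (0.158) and Prrx1 (0.274) were lost.

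**Figure D5:**
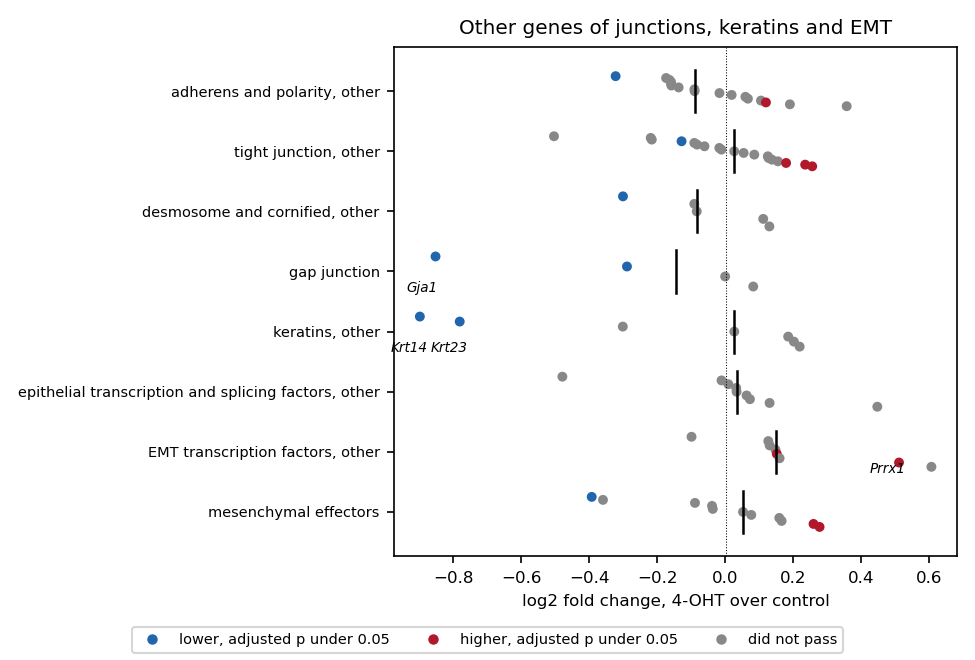
Log2 fold changes of 4-OHT over control (horizontal axis) for tested genes of 8 further lists (vertical axis), with called genes in blue and red and list medians as black lines. Gja1, Krt14 and Krt23 lie farthest to the left of the called genes, between -0.90 and -0.78. List medians run from -0.145 for gap junction genes to 0.15 for the other EMT factors.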

How the data were processed

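The deposited matrix of the authors gives raw whole-number read counts per gene for 6 RNA-seq libraries. The authors' deposited table holds the log2 fold change and the FDR, an adjusted p-value, per gene, per the file headers. Among the tools and builds named, without roles, per the submitters' processing notes are edgeR, TopHat2 2.1.0, Bowtie 1.1.2, GRCm38.p6 and mm10. The sources used here do not state the counting program or its use of strand. Of the series, 27 ChIP-seq samples were not used here.

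After removal of 27 repeated lines, filterByExpr (minimum count 10, minimum total 15) kept 13355 genes with 99.7% of the reads. Groups were compared in R 4.3.3 with edgeR 4.0.16 (TMM scaling, robust quasi-likelihood F test, two-sided, Benjamini-Hochberg threshold 0.05, no replicate block). The SE is the size of the log2 fold change divided by the square root of F. Alternatives used limma 3.58.1, DESeq2 1.42.0 and the settings given at the end. The procedure was tested on simulated data. The smallest change simulated was larger than that of most called members, so recovery of changes that small was not tested. No libraries were merged, since those of 1 group differed beyond counting noise (chi-square over degrees of freedom 1.26 to 1.48). Positions, overlaps and promoters come from RefSeq tables of GRCm38.p6. Values per library were given for all called members and for the EMT and epithelial factors, Krt8, Krt18 and Lin9, and up to 3 called genes per other list, those with the smallest p, were named with values, or the gene with the highest CPM where none was called. Of each marker list the gene with the highest CPM was named. Magi3 and the markers beyond the highest were named after their values were seen. The members and lists were chosen with earlier results of these data known. One gene that this rule would name is not reported here but remains in the counts.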

Additional observations from a re-analysis of the deposited data

How the results depend on the processing

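DESeq2 called 3 members higher, 362 genes lower and 208 genes higher, against 5, 691 and 616 in the main edgeR analysis, and gave no adjusted p for genes it set aside. Leaving out each library gave 6 to 8 members lower, 3 to 5 members higher (3 without 4-OHT replicate 1, control replicate 1 or control replicate 2), 508 to 643 genes lower and 403 to 542 genes higher (403 without control replicate 1). Under the other settings these counts stayed within 1.5 times the main ones. No called member changed direction. Some members that were not called did. Krt18 was at 0.0088 with library totals alone and at -0.010 to 0.010 when each library was left out. On leaving out libraries the log2 fold change of Jup lay between -0.062 and 0.023, of Dsg2 between -0.055 and 0.113, of Dsc2 between -0.25 and 0.13, of Pkp3 between -0.109 and 0.013, of Tjp3 between -0.257 and 0.013 and of Esrp2 between -0.015 and 0.126. Without a change of sign, it lay between -0.146 and -0.018 for Dsp, -0.135 and -0.019 for Cldn4, 0.031 and 0.141 for F11r, 0.019 and 0.058 for Krt19, 0.051 and 0.136 for Zeb2, and 0.097 and 0.363 for Twist1. The causes were not tested.

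Replicate numbers did not pair the libraries: deviations of same-numbered libraries correlated at -0.026 to 0.010. With the replicate block 7 members were lower and 5 higher, and 665 genes were lower and 579 higher; Cldn3 was the member no longer called (adjusted p = 0.051). Depth limits Dsg2, Dsc2, Tjp3, Snai2 and Twist1, and Snai1 and Cldn1 could not be tested.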
